A study of Mus musculus with 4 samples.

Results

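The genes described here belong to the Ms4a and Tmem176 families of small membrane proteins: Ms4a4a, Ms4a4c, Ms4a6b, Ms4a6c, Ms4a6d, Ms4a7, Tmem176a and Tmem176b. These 8 genes, of 19938 named by exactly 1 symbol of the platform annotation, were chosen by symbol. Each had 1 probe set that carried its symbol alone. Probe sets with several symbols were not counted. They were picked with the values of these same arrays already known, so their levels are given as a description and carry no test. All 8 passed the filter on low values, as did 14995 genes in all.

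The arrays measured RNA of bone marrow cells of C57BL/6J mice after 7 days in culture. In the GM-CSF group, called M1 by the submitters, the marrow grew with granulocyte-macrophage colony-stimulating factor and the mixed culture was sorted for cells carrying CD45, MHC class II and the macrophage antigen encoded by Adgre1 and lacking CD8a. In the M-CSF group, called M2, the growth factor was macrophage colony-stimulating factor, given in the form of 20% L929 cell culture supernatant (L929 is a mouse fibroblast line), and the sort took cells with CD45, the Adgre1 antigen and CD11b. Each group had 2 arrays. Growth factor, L929 supernatant and sort gate differed together and cannot be told apart, and no label says that the replicates came from different cultures or mice. The p-values therefore cover only the variation among these samples, which in the M-CSF pair may be technical. The GM-CSF arrays did not come from the same mouse, since replicate 1 had the Xist and Y-linked transcript levels of female cells and replicate 2, like both M-CSF arrays, those of male cells (values given with the marker genes).

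Ms4a proteins cross the membrane several times and mostly act as partners of other receptors. The founding members are Ms4a1 (CD20, a B cell marker) and Ms4a2, the beta chain of the high-affinity IgE receptor of mast cells, while Ms4a4a and Ms4a7 are known from macrophages, where Ms4a4a associates with the beta-glucan receptor dectin-1. Tmem176a and Tmem176b are distant relatives of this family that sit largely in intracellular membranes of dendritic cells and macrophages, conduct cations there and have been tied to antigen presentation and to restraint of the NLRP3 inflammasome.

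All 6 Ms4a genes of the group lie in the Ms4a gene run of chromosome 19. In RefSeq (GRCm38.p6) that run counts 21 genes, and the 6 fall within 8 consecutive ones, in the order Ms4a7, Ms4a4a, Ms4a4c, Ms4a4b, Ms4a6c, Ms4a6b, Ms4a4d and Ms4a6d. Tmem176a and Tmem176b stand head to head on chromosome 6. RefSeq promoter windows (250 bases before to 50 after a transcript start) were matched for 7 of the 8 genes, all but Ms4a6d. The promoters of Ms4a6c and Ms4a6b are shown because a single unbroken run of 48 bases was common to both. Among the Ms4a genes with a window, no other pair shared more than 9 on the same strand, and Ms4a6d could not be compared. Capitals mark the run of 48 bases, which starts 49 bases before the Ms4a6c start and 118 bases before the Ms4a6b start. The Ms4a6c stretch is chr19:11469299-11469367 and the Ms4a6b stretch chr19:11518421-11518508, both on the plus strand of GRCm38.p6.
Ms4a6c: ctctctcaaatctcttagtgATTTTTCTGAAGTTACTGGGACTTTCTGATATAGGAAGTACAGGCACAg
Ms4a6b: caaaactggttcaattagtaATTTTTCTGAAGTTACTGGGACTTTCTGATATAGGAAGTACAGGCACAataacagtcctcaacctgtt

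The bases between the outermost Tmem176b start and the nearest Tmem176a start are shown because both genes are read outward from them. They span 108 bases, chr6:48841375-48841482 on the plus strand of GRCm38.p6, and capitals mark the letters AGGAAGT, a core recognised by ETS factors such as PU.1, the myeloid master regulator encoded by Spi1.
Tmem176a and Tmem176b: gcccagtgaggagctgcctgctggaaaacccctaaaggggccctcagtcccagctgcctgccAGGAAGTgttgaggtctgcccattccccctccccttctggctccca

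Searched on both strands of the 250 bases before the first listed start of each gene, AGGAAGT was present in 3 of the 7 promoters (Ms4a6b, Ms4a6c and Tmem176a) and in 7.80% of all 27025 RefSeq promoters of that length. In both Ms4a6b and Ms4a6c a match lies inside the shared run, and Ms4a6b has 2 matches in all. GAAANNGAA (interferon-response-like) was also in 3 of the 7 (Ms4a6b, Ms4a6c and Ms4a7), against 7.16% of all promoters. None of these matches overlapped an AGGAAGT match. Extended by 1 more A at its end, as first searched, it was in 0 of the 7, against 3.04% of all. The letters TTCNNNGAA (STAT-like) and TGANTCA (AP-1-like) were in 0 of the 7, against 7.18% and 6.87%. With every listed start of a gene counted, AGGAAGT was found for 4 of the 7, against 8.80% of genes. The added gene was Tmem176b, where 1 of 3 listed starts, the outermost one that borders the stretch shown, has the match in its window. TGANTCA was then found for 1 of the 7, Ms4a7 (7.82% of genes), while the counts for the other motifs stayed at 3, 0 and 0. These matches are descriptions of letters in a window and not of binding.

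Tmem176a and Tmem176b were far lower in GM-CSF than in M-CSF cells. Tmem176a read 7.51 and 9.12 in GM-CSF replicates 1 and 2 and 11.43 and 11.58 in M-CSF replicates 1 and 2, on the log2 scale used for every level here. Its difference, GM-CSF minus M-CSF, was -3.19 ± 0.47 on the log2 scale (SE of the limma fit, n = 2 per group), a 9.11-fold lower level in GM-CSF cells. Both GM-CSF arrays lay below both M-CSF arrays, with GM-CSF replicate 1 the lowest. In such sorted but bulk RNA, fewer cells that hold a transcript and less transcript per cell cannot be told apart.

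Tmem176b, its head-to-head neighbour, read 9.24 and 10.52 with GM-CSF and 12.46 and 12.48 in the M-CSF arrays. That is a log2 difference of -2.59 ± 0.38 SE, or 6.03-fold. The groups did not overlap, and the arrays fell in the same order as for Tmem176a. The log2 ratio of Tmem176a to Tmem176b within an array was -1.73 and -1.40 in GM-CSF replicates 1 and 2 and -1.03 and -0.91 in M-CSF replicates 1 and 2, so the ratio was lowest where both genes were lowest. Whether that reflects unequal change or the differing response of a pair of probe sets was not tested.

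Ms4a7, the macrophage member at one end of the 8-gene stretch, was also lower in GM-CSF cells, at 10.27 and 10.64 against 11.52 and 11.51. Its log2 difference was -1.06 ± 0.15 SE, or 2.08-fold, with no overlap between the groups. The gap between its GM-CSF arrays (0.37) was the smallest of the 8 genes.

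Ms4a6c read 11.07 and 11.79 in the GM-CSF arrays and 11.84 and 11.86 in the M-CSF arrays. Its log2 difference of -0.42 ± 0.23 SE came mostly from replicate 1, since GM-CSF replicate 2 lay 0.06 below the M-CSF mean and replicate 1 lay 0.78 below it. The role of this gene in macrophages is little defined.

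**Figure D1:**
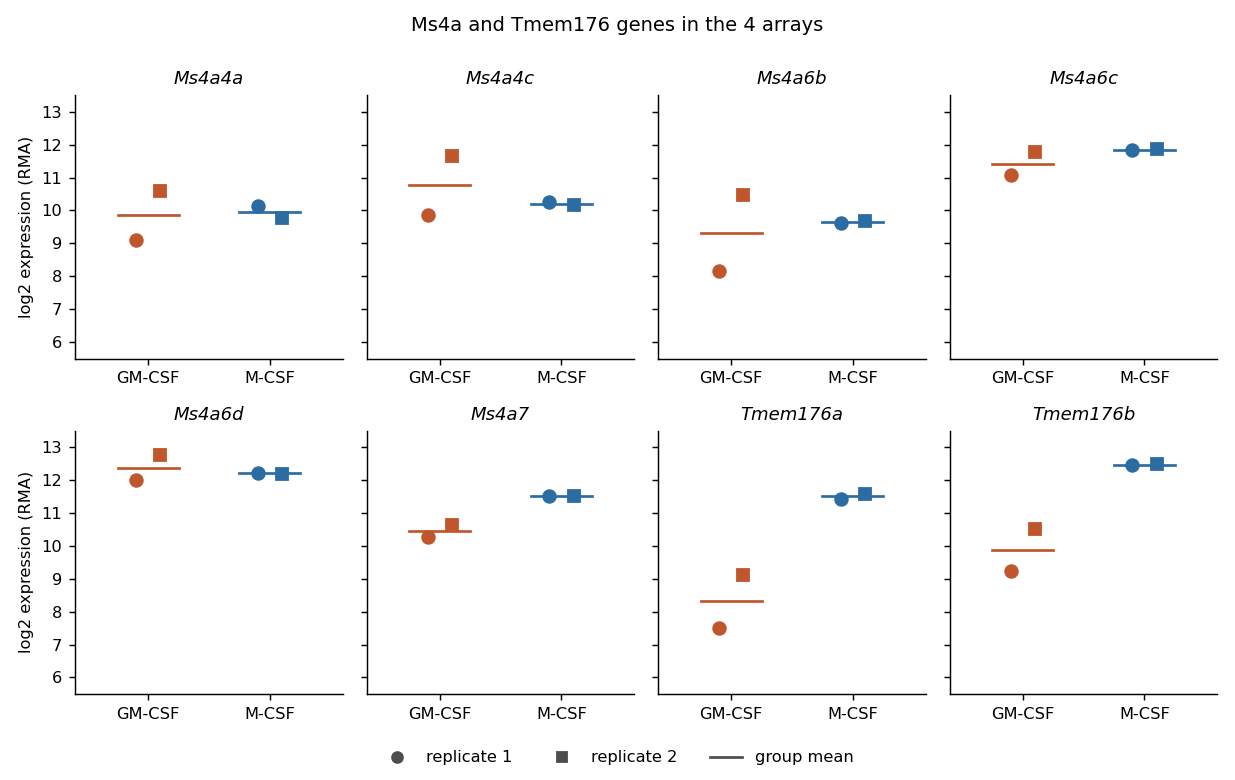
Log2 expression (RMA, vertical axis) of the 8 genes in each of the 4 arrays, GM-CSF at left and M-CSF at right of each panel, circles for replicate 1, squares for replicate 2 and lines for group means. Replicate 1 lies below replicate 2 in every GM-CSF pair, and both GM-CSF arrays lie below both M-CSF arrays for Ms4a6c, Ms4a7, Tmem176a and Tmem176b.

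The other four Ms4a genes had both M-CSF arrays lying between the GM-CSF arrays. Ms4a6b had the widest spread, at 8.15 and 10.46 in GM-CSF replicates 1 and 2 against 9.62 and 9.67 in the M-CSF arrays. Replicate 2 was thus 4.95-fold above replicate 1. Its mean difference, -0.34 ± 0.67 SE, covers -1.50 for GM-CSF replicate 1 and 0.81 for replicate 2, each against the M-CSF mean.

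Ms4a4c read 9.87 and 11.65 in GM-CSF and 10.26 and 10.16 in M-CSF cells. GM-CSF replicate 2 stood 1.44 above the M-CSF mean and replicate 1 stood 0.33 below it, for a mean difference of 0.55 ± 0.52 SE. Within the GM-CSF pair that is a 3.42-fold gap.

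Ms4a4a, the dectin-1 partner, read 9.11 and 10.59 in the GM-CSF arrays, a 2.80-fold gap, and 10.13 and 9.78 in the M-CSF arrays. Its mean difference was -0.11 ± 0.45 SE, smaller than the spread within either pair.

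Ms4a6d, which has been described as a partner of the complement receptor VSIG4 in macrophages, read 12.01 and 12.75 against 12.21 and 12.19. Its mean difference was 0.18 ± 0.23 SE. For Ms4a4a, Ms4a4c, Ms4a6b and Ms4a6d the sign of the difference from M-CSF cells depended on the GM-CSF array taken, negative with replicate 1 and positive with replicate 2.

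Counted together, both GM-CSF arrays lay below both M-CSF arrays for 4 of the 8 genes, as they did for 29.2% of all genes tested, and the M-CSF arrays lay between the GM-CSF arrays for the other 4, as for 12.7%. In all of these 4, GM-CSF replicate 2 was the higher, as in 7.98% of genes tested. In the limma fit over all genes, at a Benjamini-Hochberg adjusted p under 0.05, 3 of the 8 were lower in GM-CSF cells (Ms4a7, Tmem176a and Tmem176b) and 0 higher (0 at an unadjusted p under 0.05 too). Of all genes, 4.53% were called lower and 6.18% higher. Since the genes were chosen knowing this contrast, nothing is read from these counts. Their median log2 difference was -0.38, beside -0.01 for all genes tested. With trended and robust variances only Ms4a7 was called. Without GM-CSF replicate 1 the count was 3 lower and 4 higher, without GM-CSF replicate 2 it was 6 lower and 0 higher, and without M-CSF replicate 1 or replicate 2 it was 0.

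The GM-CSF arrays differed from each other in the same direction for all 8 genes. Replicate 2 was above replicate 1 for 8 of 8, as for 56.0% of genes tested, and by at least 2-fold for 5 of 8 (Ms4a4a, Ms4a4c, Ms4a6b, Tmem176a and Tmem176b), as for 0.7% of genes tested. The gaps ran from 0.37 to 2.31 on the log2 scale with a median of 1.38, while over all genes tested the median of replicate 2 minus replicate 1 was 0.03 and the median absolute gap 0.14. Inside the M-CSF pair the absolute gaps of the 8 genes ran from 0.01 to 0.35, and 0 of 8 reached 2-fold, as 0.0467% of genes tested did. A difference between a pair of arrays has no replicate check, and this spread was in view when the genes were picked.

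**Figure D2:**
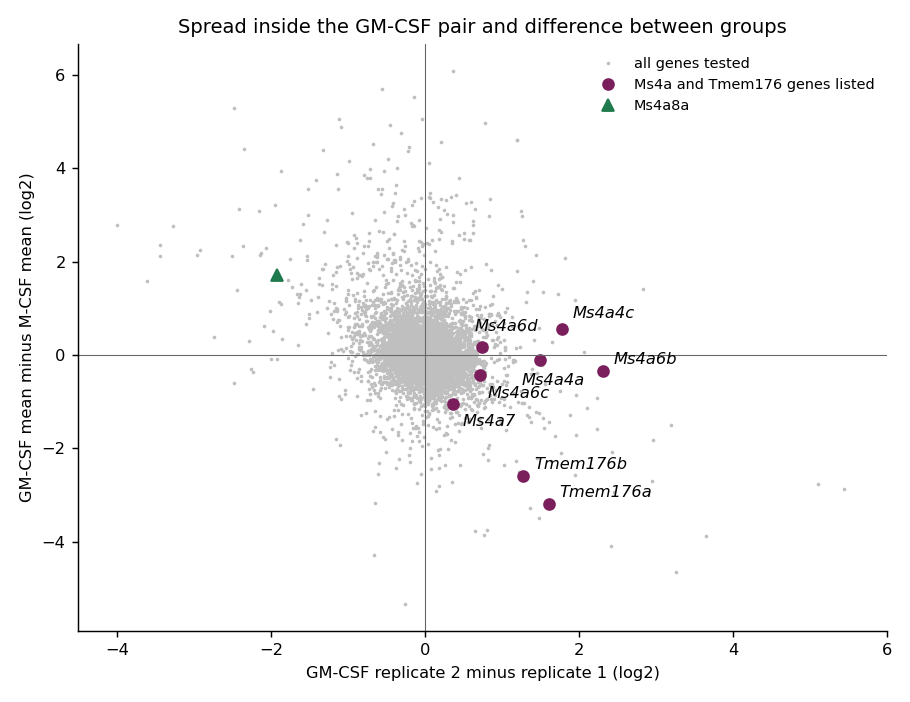
Each point is a gene, placed by its log2 difference between the GM-CSF arrays (replicate 2 minus replicate 1, horizontal) and by its log2 difference between group means (GM-CSF minus M-CSF, vertical), with all 14995 genes tested in grey. The 8 named genes lie to the right of 0 and Ms4a8a to the left at -1.92.

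Other genes parted the same arrays. Xist, which coats the silenced X chromosome, read 11.58 in GM-CSF replicate 1 and 4.93, 4.53 and 4.80 in GM-CSF replicate 2 and the M-CSF arrays, and the Y-linked Eif2s3y read 3.66 there against 9.10, 9.32 and 9.17. Among marker lists, the neutrophil list (6 genes) had a mean log2 level of 6.87 in GM-CSF replicate 1 and 6.05 to 6.14 in the other arrays. S100a8, S100a9, Ly6g and Ngp were highest in GM-CSF replicate 1, while Camp and Retnlg were not. Ngp was also higher in the M-CSF arrays (8.40 and 7.83) than in GM-CSF replicate 2 (7.02). The 2 measured monocyte genes averaged 9.44 and 8.48 in GM-CSF replicates 1 and 2 and 7.77 and 6.94 in the M-CSF arrays. The 8 macrophage markers were above background on every array, with means from 11.51 to 11.75, and 0 of them were called by limma. Single members still parted the arrays. C1qa read 8.79 and 9.90 in the GM-CSF arrays and 10.28 and 10.64 in the M-CSF arrays. From GM-CSF replicate 1 to replicate 2, Fcgr1 was 1.76-fold higher and Mertk 1.43-fold lower. Of 6 dendritic cell markers, Itgax, Clec9a and Ccr7 were higher in GM-CSF cells, while Flt3 and Xcr1 stayed within background on all arrays. Zbtb46, at 6.01 and 6.32 against 5.93 and 5.91, did not pass (limma, adjusted p = 0.323). The dendritic list averaged 7.06 and 6.87 in the GM-CSF arrays and 5.65 and 5.66 in the M-CSF arrays. Single genes of other marker lists also passed the limma test. Of the 2 measured monocyte genes, Ccr2 was higher in GM-CSF cells, at 9.95 and 9.70 against 7.36 and 6.29 (7.99-fold, adjusted p = 0.00367). F13a1, at 8.92 and 7.27 against 8.17 and 7.59, did not pass. Of 4 measured B cell markers, Cd79b was lower in GM-CSF cells, at 7.69 and 7.95 against 10.16 and 10.21 (5.14-fold, adjusted p = 0.000326), while Cd79a and Ms4a1 were within background on all arrays. The B cell list averaged 5.61 and 5.78 in the GM-CSF arrays and 6.47 and 6.50 in the M-CSF arrays. Of 4 measured T cell markers, Cd4 was lower, at 5.63 and 5.29, within background, against 7.35 and 7.00 (at least 2.46-fold, taking background as the GM-CSF level, adjusted p = 0.00267), and Cd3g and Cd8a were within background on all arrays. The T cell list averaged 5.34 and 5.39 in the GM-CSF arrays and 5.72 and 5.78 in the M-CSF arrays. Of 5 fibroblast markers, Dcn was higher in GM-CSF cells, at 7.63 and 6.94 against 6.42 and 6.03 (adjusted p = 0.0465). The fibroblast list averaged 6.15 to 6.34 over the arrays. Of 6 mast cell or basophil markers, 1 passed the filter (Kit) and did not pass the test (limma, adjusted p = 0.738). Cpa3, not tested, read 5.91 in GM-CSF replicate 1, just above background (5.85). It read 4.46 in GM-CSF replicate 2 and 4.77 and 4.61 in the M-CSF arrays. The mast cell or basophil list averaged 4.99 in GM-CSF replicate 1 and 4.64 to 4.73 in the other arrays. The part of sex or of RNA from these other cell types in the Ms4a and Tmem176 values was not tested.

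The rest of the Ms4a family was mostly dim. The array named 13 other Ms4a genes and no further Tmem176 gene. Background was taken as the 95th percentile of 1027 olfactory receptor genes on each array, 5.90 on average, and 10 of the 13 were at or below it on every array. Among these were Ms4a1, at 4.66 to 5.34, and Ms4a2, at 3.75 to 4.08, the B cell and mast cell members, and Ms4a3, a gene of granulocyte and monocyte progenitors, at 4.98 to 5.60. Ms4a12, Ms4a13, Ms4a19, Ms4a20 and Ms4a5 were below it as well. Ms4a10 (5.86 to 6.21) and Ms4a15 (6.33 to 6.46) lay near it.

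Of these 13 genes, 5 passed the filter and 0 were called by limma in either direction, beside 10.7% of all genes, with 1 higher and 0 lower at an unadjusted p under 0.05. The median log2 difference of the 5 was 0.11. The gene with the small unadjusted p was Ms4a8a, which has been described in alternatively activated mouse macrophages. It read 8.60 and 6.68 in GM-CSF replicates 1 and 2 and 5.99 and 5.86 in the M-CSF arrays, so both GM-CSF arrays were higher, and of the M-CSF arrays only replicate 1 was above background. Its log2 difference of 1.72 ± 0.56 SE did not pass (limma, adjusted p = 0.115). It passed with the replicate number as a block (adjusted p = 0.0496), and in fits without GM-CSF replicate 1 (0.76, adjusted p = 0.000948) and without GM-CSF replicate 2 (2.67, adjusted p = 7.51e-10), which take the spread from the M-CSF pair alone. In Ms4a8a, replicate 1 was 3.78-fold above replicate 2, the reverse of the order in the 8 genes above.

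Ms4a4b, a T cell member that lies between Ms4a4c and Ms4a6c, and Ms4a4d, between Ms4a6b and Ms4a6d, stayed within background on every array. Ms4a4b read 3.52 and 4.50 in the GM-CSF arrays and 3.79 and 3.77 in the M-CSF arrays. Ms4a4d read 5.05 and 5.70 against 5.36 and 5.29. In both, the M-CSF arrays lay between GM-CSF replicate 1 and the higher replicate 2. That order was found in 7.98% of genes tested. Ms4a4b did not pass the filter, and at levels within background nothing is read from the order. Close paralogs such as the Ms4a4 and Ms4a6 genes may share hybridisation to each other's probes, which was not tested.

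**Figure D3:**
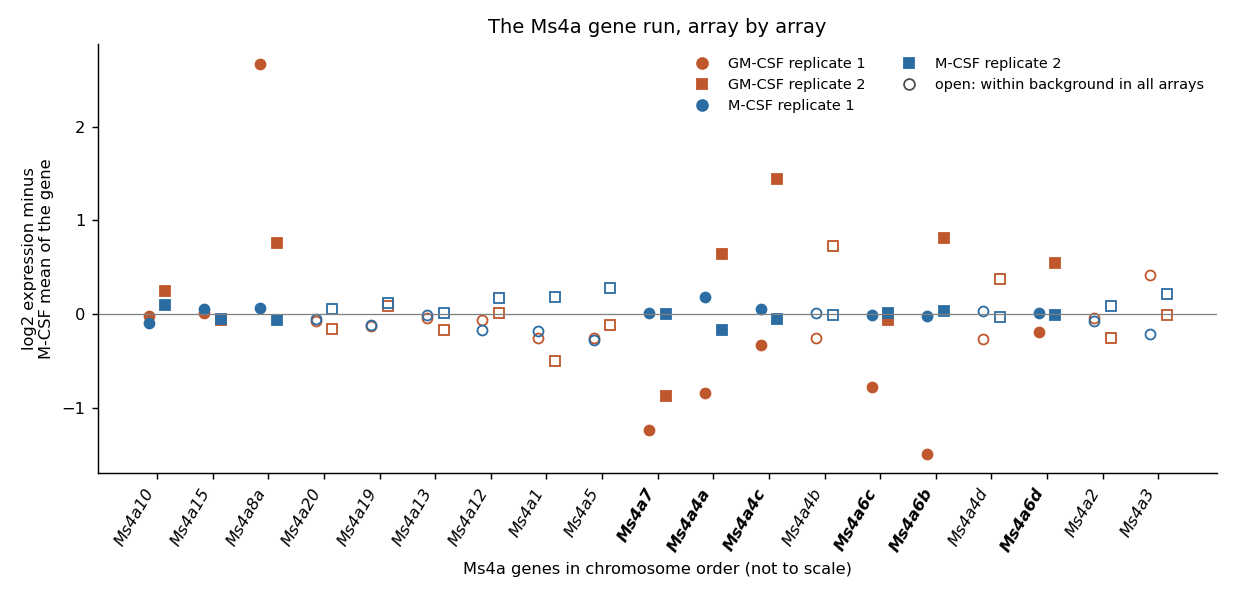
The 19 Ms4a genes on the array in chromosome order (horizontal, not to scale), each array shown as log2 expression minus the gene's own M-CSF mean (vertical), circles for replicate 1, squares for replicate 2, orange for GM-CSF, blue for M-CSF, open symbols for genes within background on all arrays and bold names for the 6 genes described in detail. The GM-CSF symbols lie farthest apart at Ms4a6b (2.31), Ms4a4c (1.77) and Ms4a4a (1.49), with replicate 2 above replicate 1, and at Ms4a8a (-1.92), with replicate 1 above, at 2.67. They are 0.37 apart at Ms4a7.

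Genes next to these families in the genome were taken as 5 named genes on each side of the Ms4a run and of the Tmem176 pair. Of these 20 genes, 12 passed the filter, 2 were lower in GM-CSF cells and 0 higher (limma, adjusted p under 0.05), with 2 lower and 2 higher at an unadjusted p under 0.05, beside 10.7% called among all genes. Aoc1, a diamine oxidase gene beyond Tmem176a, read 4.99 and 4.98 in GM-CSF and 5.74 and 5.81 in M-CSF cells, within background throughout, so no fold is given (limma, adjusted p = 0.00663). Mrpl16, a mitochondrial ribosomal protein gene beyond the Ms4a run, differed by -0.49 ± 0.11 SE (limma, adjusted p = 0.044). Mrpl16 lost its call with no filter (0.0636), with arrays centred on the median of all probe sets (0.056) and with the replicate block (0.0613), and kept it with arrays centred on the median of the genes tested (0.0295), all as limma adjusted p. Without M-CSF replicate 1 or replicate 2 neither gene was called. The other 10 tested neighbours did not pass. Of the 12, 0 had GM-CSF replicate 2 at least 2-fold above replicate 1, beside 0.7% of all genes tested.

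Receptors, adaptors and regulators tied to these families formed a further list of 22 genes, of which the annotation named 20 with a single symbol and 18 passed the filter. By limma, 6 were higher in GM-CSF cells, 2 lower and 10 did not pass, beside 10.7% of all genes called. The median log2 difference of the 18 was 0.12. Without M-CSF replicate 1 or replicate 2, 3 of them were called (Clec7a, Nlrp3 and Il1b).

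Clec7a, which encodes the Ms4a4a partner dectin-1, read 10.92 and 10.35 with GM-CSF against 7.36 and 7.03 with M-CSF, a 10.9-fold higher level (log2 3.44 ± 0.21 SE, limma adjusted p = 0.000511). Its highest array was GM-CSF replicate 1, where Ms4a4a was lowest (9.11). Ms4a4a was highest in GM-CSF replicate 2 (10.59), where Clec7a was still above both M-CSF arrays. In the M-CSF pair both genes were lower in replicate 2, with Ms4a4a at 10.13 and 9.78. A link between the levels of Clec7a and Ms4a4a was not tested. The kinase Syk (-0.24 ± 0.13 SE) and the adaptor Card9 (0.31 ± 0.11 SE), which carry the dectin-1 signal, did not pass. Trem2, a lipid-sensing receptor, was 1.91-fold higher in GM-CSF cells (log2 0.93 ± 0.11 SE, limma adjusted p = 0.00417) and its adaptor gene Tyrobp differed by -0.03 ± 0.11 SE without passing. The Trem2 call did not hold when M-CSF replicate 1 (limma, adjusted p = 0.0716) or replicate 2 (0.0934) was left out.

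Inflammasome genes split. Nlrp3, the sensor, was 2.84-fold higher in GM-CSF cells (log2 1.50 ± 0.12 SE, limma adjusted p = 0.00101), and the cytokine gene Il1b 6.62-fold higher (2.73 ± 0.12 SE). Pycard, the adaptor that joins sensor and caspase, was lower, at 9.47 and 9.24 against 10.02 and 9.95 (log2 -0.63 ± 0.12 SE, limma adjusted p = 0.0259, and 0.24 and 0.203 without M-CSF replicates 1 and 2). Casp1 (0.15 ± 0.10 SE) and Il18 (0.10 ± 0.26 SE) did not pass. The GM-CSF arrays had lower Tmem176a, Tmem176b and Pycard levels and higher Nlrp3 and Il1b levels than the M-CSF arrays. In GM-CSF replicates 1 and 2, Tmem176a read 7.51 and 9.12, Nlrp3 9.36 and 9.56 and Il1b 11.52 and 11.54. A link between the Tmem176 genes and the inflammasome genes was not tested. Among the chains of the IgE receptor, Fcer1g, the shared signalling chain, differed by -0.06 ± 0.10 SE without passing, and Fcer1a and Ms4a2 were within background on all arrays.

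Of 7 transcription factor genes measured, 3 were called by limma. Irf4 read 8.34 and 7.19 with GM-CSF against 5.36 and 5.45 with M-CSF, where it was within background on both arrays. With background taken as the M-CSF level it was at least 3.57-fold higher in GM-CSF cells (measured log2 difference 2.36 ± 0.34 SE, adjusted p = 0.0097). Cebpb was 1.57-fold higher (0.65 ± 0.13 SE, adjusted p = 0.0259). Maf, a factor of resident macrophages, was lower, at 10.09 and 10.65 against 11.28 and 11.32 (-0.93 ± 0.19 SE, adjusted p = 0.0308). Its arrays fell in the order of those of Tmem176a and Tmem176b. So did those of other genes named here that did not pass, such as Spi1, Fcer1g and Adgre1. How many of all genes had this order was not counted. Irf4 lost its call with trended and robust variances (adjusted p = 0.0646), and Irf4, Cebpb and Maf lost theirs without M-CSF replicate 1 (0.15, 0.178 and 0.243) and without M-CSF replicate 2 (0.145, 0.244 and 0.251). Spi1 (-0.24 ± 0.13 SE), Cebpa (0.30 ± 0.13 SE), Irf8 (-0.03 ± 0.17 SE) and the glucocorticoid receptor gene Nr3c1 (-0.45 ± 0.12 SE) did not pass. For Nr3c1 the adjusted p was 0.0647 (limma). Nr3c1 was called lower with trended and robust variances and with arrays centred on the median of the genes tested.

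**Figure D4:**
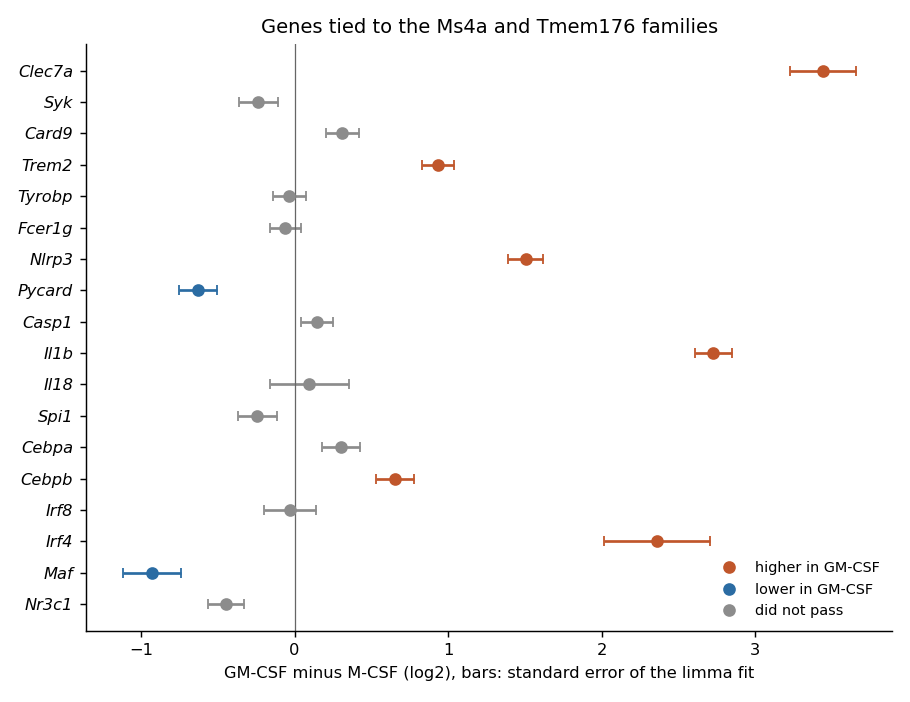
Log2 difference GM-CSF minus M-CSF (horizontal) of the 18 tested genes tied to the families, points for the difference of the group means (n = 2 arrays each) and bars for the standard error of the limma fit, orange for higher, blue for lower and grey for genes that did not pass. The Irf4 point (2.36) is the measured difference, with M-CSF cells within background. Clec7a lies farthest to the right at 3.44 and Maf farthest to the left at -0.93.

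The genes most like each of the 8 were sought among the other genes tested. Genes with predicted or provisional names, pseudogenes and olfactory or vomeronasal receptor genes were left out. The 3 with the smallest Euclidean distance between log2 profiles over the 4 arrays were taken, each profile centred on its own mean. For Tmem176a these were Ndrg1 (distance 0.21), a stress-responsive gene, Fcrls (0.31), an Fc receptor-like gene of macrophages and microglia, and Adgrg6 (0.65), an adhesion receptor. Ndrg1 read 8.58 and 9.94 in the GM-CSF arrays and 12.53 and 12.55 in the M-CSF arrays. For Tmem176b they were Sema4c (0.10), a semaphorin, at 6.62 and 7.84 against 9.72 and 9.75, Heg1 (0.29) and Cd244a (0.33). Tmem176b was the 4th nearest of all tested genes to Tmem176a, at a distance of 0.65, and Tmem176a the 11th nearest to Tmem176b.

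For the Ms4a genes the nearest profiles differed from member to member. Around Ms4a6d were Irgm1 (0.02), Mov10 (0.05) and Bst2 (0.06), each known as interferon-inducible, with Irgm1 at 9.29 and 10.02 against 9.48 and 9.44. Around Ms4a4c were Dusp1 (0.27), a phosphatase gene, Spn (0.31), which encodes CD43, and Mx1 (0.39), an interferon-induced GTPase gene. Nr1h3, which encodes the oxysterol receptor LXR alpha, and Cd72, a C-type lectin gene, were among the nearest 3 of both Ms4a4a (0.23 and 0.24) and Ms4a6b (0.58 and 0.58).

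Bcl6 (0.25) completed the set for Ms4a4a and St3gal5 (0.46) was nearest to Ms4a6b. Cd72 read 11.31 and 12.82 in the GM-CSF arrays and 12.30 and 12.25 in the M-CSF arrays. Ms4a6c was nearest to Urm1, Snora74a and Clec12a (0.06, 0.06 and 0.07), and Ms4a7 to Tle4, Prxl2b and Rmrp (0.06, 0.07 and 0.07). With 4 arrays such likeness describes these profiles and carries no test.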

How the data were processed

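Per the labels' protocols, 300 ng of total RNA per sample was amplified, biotin-labelled and read on Affymetrix arrays of 1 colour. The submitters' processing notes name RMA and Affymetrix Expression Console 1.1, and the deposited values are log2 expression per probe set. RMA subtracts background and brings arrays to one distribution, so dim differences are compressed and a change in total RNA is not visible. The array's genome build was not given in the sources used here. Scan batches were not tested. The number of arrays limits the precision.

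Of 35556 probe sets, 21789 had 1 gene symbol, 1621 several and 12146 none, and 21698 matched the RefSeq table (GRCm38.p6) by gene ID. A gene was represented by its probe set with the highest mean, and entered when at least 2 of 4 arrays exceeded that array's 30th percentile. The lmFit and eBayes functions of limma 3.58.1 (R 4.3.3), two-sided, compared 2 GM-CSF with 2 M-CSF arrays, and the fit was tested on simulated data. Folds are powers of log2 differences. Python 3.11.15 and pandas 2.3.3 prepared tables. Genes and lists were chosen with earlier results of these data known. The naming rule took the 8 genes, other Ms4a or Tmem176 genes, called neighbours and linked genes (up to 6 of each by size) and the 3 nearest profiles per gene. Genes named beyond it, such as Cebpb, Pycard and those that did not pass, were named after their values were seen. Other settings were no filter or a stricter filter, quantile normalization, median centring, trended and robust variances, a replicate block, probe set means and each array left out.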

Additional observations from a re-analysis of the deposited data

How the results depend on the processing

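Of all genes tested, 1605 were called, and between 1348 and 1797 under the settings that kept all 4 arrays. Centring on the median of the genes tested, added after seeing the data, gave 841 higher and 865 lower against 926 and 679. Leaving out 1 array gave 233 to 3205 calls over all genes, 0 to 7 among the 8 genes, 0 to 1 among the other Ms4a genes, 0 to 3 among the neighbours and 3 to 9 among the linked genes. When a GM-CSF array was dropped, the spread came from the M-CSF pair alone, the closer pair, and in each such fit the lone array was taken to vary as the remaining pair does. Of the 8 genes, 1 was called with trended and robust variances and 3 under every other setting with all 4 arrays. The neighbours called fell from 2 to 1 with no filter, the stricter filter, median centring over all probe sets and the replicate block. With the replicate block 1 other Ms4a gene (Ms4a8a) was called in place of 0, and 1640 genes over all. Deviations of same-numbered arrays correlated at 0.06 across genes, so the numbers were not taken as pairs.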
